A study of Mus musculus with 17 samples.

Results

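Dct, Prrx2, Pcp4, Cyp4b1, Cpn1, Arsj and Lgi2 are 7 genes chosen by their dorsal over lateral ratio, which was high only at 8 hours, 1 day or 2 days after electroporation. The probes that carry these gene names in the scanner files, 10 of 41174 probes, stand for 7 of the 26360 genes tested. The choice used no numeric threshold, and it used the dorsal over lateral ratio at the time points. The wall differences and dorsal levels of the 7 genes below are therefore a description, with no test.

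The series set cells of the dorsal wall against cells of the lateral wall of the subventricular zone (SVZ), the germinal layer along the lateral ventricle of the postnatal mouse brain. In vivo electroporation at postnatal day 1 marked the progenitors of either wall in CD1 mice, and cells positive for GFP were then sorted by flow cytometry at 8 hours or at 1, 2, 4, 7 or 14 days. Each of the 17 Agilent arrays of 2 colours held a dorsal sample in Cy3 and a lateral sample of the same time in Cy5, with 2, 3, 2, 3, 3 and 4 arrays at the 6 times. All samples shared the strain, the stage, the electroporation and the sort, no untreated group was given, and dyes were never swapped. The labels call the RNA of the dorsal channel polyA RNA and that of the lateral channel total RNA. All cDNA was amplified by a global PCR, and 200 ng of each was labelled. A constant dye effect of a probe adds to every wall difference, and it cancels in a change of that difference with time. The arrays of a time are labelled biological replicates, so p-values measure the spread between them. The sources used here do not say how many animals entered a sample.

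The germinal zone keeps a map of its embryonic origin after birth. Progenitors of the dorsal wall derive in good part from the embryonic cortex and carry cortical factors such as EMX1 and EOMES, whereas those of the lateral wall derive from the ganglionic eminences and carry DLX and GSX factors. Electroporation labels radial glia that line the ventricle, and their progeny then move toward the olfactory bulb as neuroblasts, so the sorted cells age with time. The 7 genes themselves come from unrelated pathways: a melanin enzyme (Dct), a homeodomain factor (Prrx2), a calmodulin regulator (Pcp4), a fatty-acid oxidase (Cyp4b1), a plasma peptidase subunit (Cpn1), a putative sulfatase (Arsj) and a secreted synaptic protein (Lgi2).

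Markers of the walls were read first beside the labels. The lists were chosen with earlier results of these data known, so they are no independent check. Taking the mean of 8 hours, 1 day and 2 days as the early wall difference, 6 of 10 cortical progenitor genes were higher in the dorsal cells and 0 were lower by limma at an adjusted p under 0.05. Of 9 subpallial genes, 3 were lower in the dorsal cells and 0 were higher. Over all genes tested, 3.52% were called in that comparison, 520 higher and 407 lower in the dorsal wall. With arrays centred on their median in place of loess, that split was 361 higher and 1301 lower. At 4, 7 and 14 days together limma called 0% of genes at this threshold, with 2171 genes at an unadjusted p under 0.05. The share of probes above background was 41.0 to 76.7% for dorsal and 56.4 to 79.4% for lateral samples. On 1 day replicate 1 and 14 days replicate 2, which stood apart, the median signals were the lowest (Cy3 49.6 and 30.3, Cy5 122 and 123). The number of arrays limits the precision of every value below. In sorted bulk samples, fewer cells that express a gene and less RNA per cell cannot be told apart.

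**Figure D1:**
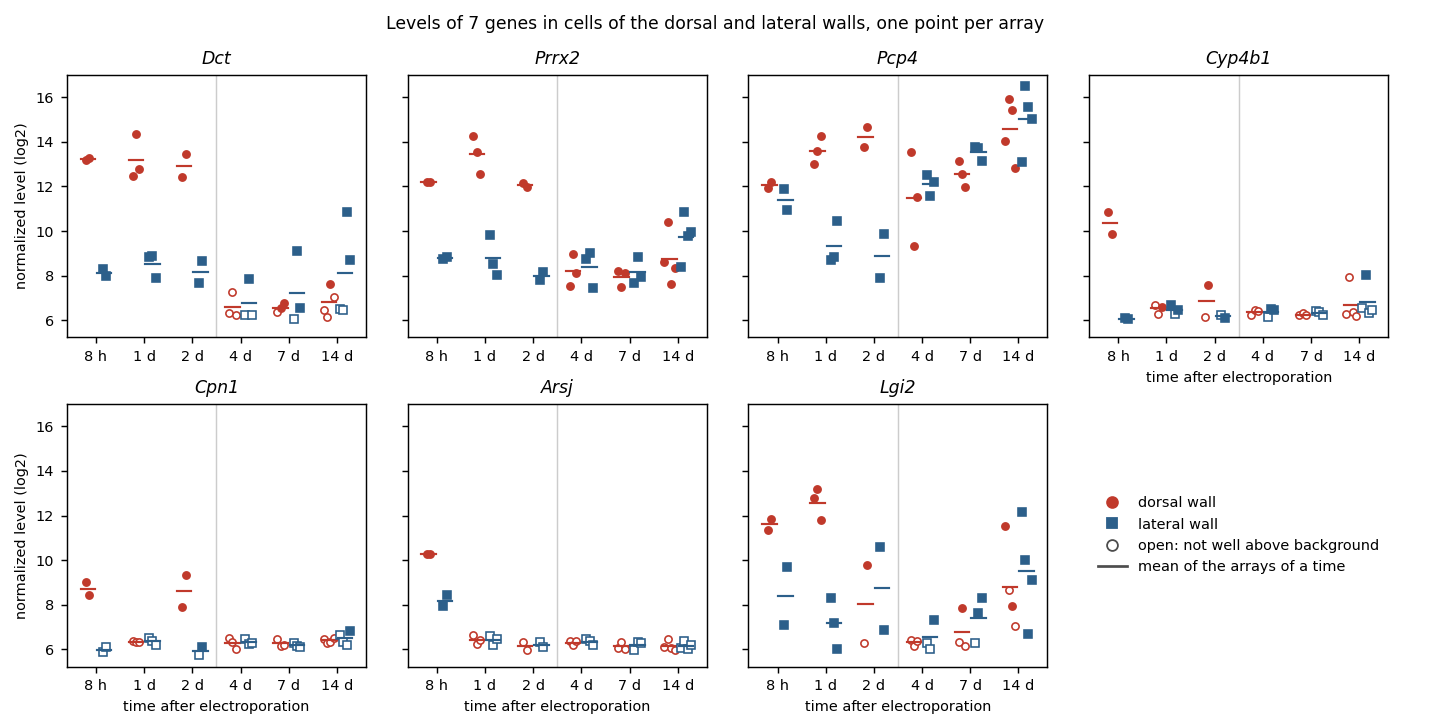
Normalized log2 level (y axis) of the representative probe of each of the 7 genes in dorsal cells (circles) and lateral cells (squares) at 6 times after electroporation (x axis). Each point is an array, open points were not well above background, and bars are means. Dct and Prrx2 were higher in dorsal cells on all 7 arrays of 8 hours to 2 days, Pcp4 was higher in lateral cells at later times than early, and Arsj left the background at 8 hours only.

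The 7 genes fell into different time courses under 1 label. Dct, by its brighter probe, and Prrx2 were at least 10-fold higher in dorsal cells on all 7 early arrays and not at 4 days. Pcp4 was close to even at 8 hours, strongly dorsal at 1 and 2 days, and on later arrays between -2.23 and 1.00. Cyp4b1 and Arsj were dorsal at 8 hours, and Cyp4b1 also on 1 of 2 arrays of 2 days. Cpn1 was dorsal at 8 hours and 2 days but not above background at 1 day. Lgi2 was dorsal at 8 hours and 1 day, and the arrays of 2 days disagreed. The median wall difference over the 7 genes ran from 2.15 to 4.75 on the log2 scale on the 7 early arrays and from -1.61 to 0.09 on the 10 later arrays. These ranges restate the choice of the genes. With 1 day replicate 1 and 14 days replicate 2 left out, the mean early wall difference was 5.0 for Dct, 4.08 for Prrx2, 3.42 for Pcp4, 2.80 for Lgi2, 1.82 for Cpn1, 1.68 for Cyp4b1 and 0.67 for Arsj, against 4.83, 4.05, 3.42, 2.65, 1.80, 1.67 and 0.67 with them.

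Dct encodes dopachrome tautomerase, an enzyme that pigment cells use to make melanin and that has also been described in progenitors of the embryonic cortex. In dorsal cells its brighter probe, A_51_P116838, stood at 13.16 and 13.27 (log2) at 8 hours, at 12.48, 14.34 and 12.79 at 1 day, and at 12.41 and 13.44 at 2 days. In lateral cells of the same arrays it stood at 8.30 and 7.98, at 8.83, 8.88 and 7.91, and at 7.69 and 8.65. The lowest dorsal array thus lay above the highest lateral array, with no overlap, and Dct was 33.8-fold higher in dorsal cells at 8 hours, 25.3-fold at 1 day and 27.0-fold at 2 days. The log2 differences behind these folds were 5.08 ± 0.31 (SD, n = 2), 4.66 ± 0.92 (SD, n = 3) and 4.76 ± 0.05 (SD, n = 2).

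From 4 days on, Dct by probe A_51_P116838 was near the limit of detection in dorsal cells. Its dorsal level was 6.13 to 7.64 with a median of 6.50 over the 10 later arrays, and it was well above background on 3 of them. The early and late dorsal levels of this probe did not overlap. In lateral cells Dct was well above background on 5 of the 10 later arrays, with the highest level, 10.86, at 14 days replicate 3. On that array and on 7 days replicate 2 the wall difference was turned to the lateral side, at -3.22 and -2.56, and on 14 days replicate 4 it was -1.66. The mean late wall difference of this probe was -0.72 ± 0.34 (SE). The other Dct probe, A_52_P550629, opposed it on 7 days replicate 2, at 5.39. There its dorsal level was 11.49, above the lowest of its early dorsal levels, 9.48.

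The promoter of Dct is shown because pigment-cell promoters are known for a motif, the M-box, whose core is CATGTG. On the opposite strand the core reads CACATG. The 250 bases before the start of Dct (RefSeq, GRCm38.p6, minus strand, chr14:118052247-118052496) hold 2 copies, in capitals, which start 232 and 150 bases before the transcript.
Dct: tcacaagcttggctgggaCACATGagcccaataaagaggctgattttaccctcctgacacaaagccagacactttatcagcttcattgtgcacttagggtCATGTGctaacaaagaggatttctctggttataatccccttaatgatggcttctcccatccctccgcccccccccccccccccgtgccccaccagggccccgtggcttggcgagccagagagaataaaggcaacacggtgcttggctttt
Of 32851 RefSeq promoters of this length, 12.3% hold the core on either strand. Among the 7 genes, all of which have a promoter in that table, Dct and Cpn1 hold it. The E-box CANNTG, which includes this core, is in 66.2% of promoters and in 4 of the 7 (Dct, Cyp4b1, Cpn1 and Arsj). TAATTA, a homeodomain core, is in 4.8% of all and in 0 of the 7, and TATAAA is in 12.4% and 0. CTTTGA, a TCF core, is in 13.8% of all promoters and in Cyp4b1 and Cpn1. ACAAAG, a SOX core, is in 16.5% of all promoters and in Dct and Cpn1. A match is a string of letters in the window and not a bound site, and no motif was shared by all 7 promoters.

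Prrx2 encodes a paired-related homeodomain transcription factor best known from limb and facial mesenchyme. In dorsal cells it stood at 12.22 and 12.20 at 8 hours, at 14.25, 13.53 and 12.56 at 1 day, and at 12.16 and 11.97 at 2 days. The lateral levels of these arrays were 8.73 and 8.84, then 9.84, 8.54 and 8.02, then 7.82 and 8.18. No lateral array reached the lowest dorsal array. Prrx2 was 10.73-fold higher in dorsal cells at 8 hours, 25.1-fold at 1 day and 16.7-fold at 2 days, with log2 differences of 3.42 ± 0.09 (SD, n = 2), 4.65 ± 0.31 (SD, n = 3) and 4.06 ± 0.39 (SD, n = 2).

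Unlike Dct, Prrx2 stayed well above background in both walls on all 17 arrays. Over the 10 later arrays its dorsal level was 7.49 to 10.40 with a median of 8.17, below every early dorsal array. Its lateral level ran from 7.43 to 10.85 with a median of 8.78, against 7.82 to 9.84 with a median of 8.54 early. Among the 7 genes Prrx2 followed the median profile most closely, with a root mean square difference of 0.62 over the 6 times. Its promoter is shown for contrast with that of Dct, and none of the letters are in capitals because it holds no CATGTG. The window lies at chr2:30845117-30845366, plus strand (RefSeq, GRCm38.p6). G and C make up 70.0% of it, against 54.0% for Dct and a median of 52.4% over all promoters.
Prrx2: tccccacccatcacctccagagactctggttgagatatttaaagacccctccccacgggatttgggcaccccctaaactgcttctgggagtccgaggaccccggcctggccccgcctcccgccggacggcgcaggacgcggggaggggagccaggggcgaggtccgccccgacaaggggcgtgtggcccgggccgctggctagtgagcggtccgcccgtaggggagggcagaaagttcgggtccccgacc

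Pcp4 encodes a small protein with an IQ motif that speeds the exchange of calcium on calmodulin, and it marks several neuron classes. It was the brightest of the 10 probes and was well above background everywhere. At 8 hours its dorsal levels were 11.95 and 12.21 and its lateral levels 11.88 and 10.93, a difference of 0.67 ± 0.86 (SD, n = 2) that lay within the spread. At 1 day dorsal cells stood at 12.98, 13.59 and 14.24, and lateral cells had 8.72, 8.84 and 10.47. At 2 days dorsal cells stood at 13.77 and 14.66 against 7.90 and 9.89 in lateral cells. Pcp4 was thus 19.2-fold higher in dorsal cells at 1 day and 40.0-fold at 2 days, with no overlap between the walls at either time.

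The Pcp4 difference closed between 2 and 4 days, with a change of the mean in both walls that was uneven over the dorsal arrays. Mean dorsal levels were 14.21 ± 0.63 (SD, n = 2) at 2 days and 11.46 ± 2.10 (SD, n = 3) at 4 days, and mean lateral levels were 8.89 and 12.10. The 4 days dorsal arrays read 13.52, 9.32 and 11.54, and the first was close to the 13.77 of 2 days replicate 1 on the same slide. Over all 6 times the lateral mean ran through 11.41, 9.34 and 8.89 up to 2 days, and then through 12.10, 13.54 and 15.04 at 4, 7 and 14 days. The dorsal mean ran through 12.08, 13.61 and 14.21, and then through 11.46, 12.56 and 14.55, so it was back near its 2 days level at 14 days. Late lateral levels, 11.55 to 16.48, overlapped early ones, 7.90 to 11.88, only through 8 hours replicate 1. Late dorsal levels, 9.32 to 15.91, spanned the early ones, 11.95 to 14.66. At 7 days all 3 arrays were higher in lateral cells, by 0.98 ± 0.33 (SD, n = 3).

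The change with time inside the lateral wall is given with no test, because lateral levels are the denominator of the ratio by which the genes were chosen. Mean levels of 4, 7 and 14 days were set against those of 8 hours, 1 day and 2 days. Over all genes 5.99% were called in this comparison by limma, 3.5% higher and 2.49% lower late. The lateral change on the log2 scale was 3.68 ± 0.48 (SE) for Pcp4, -0.71 ± 0.15 for Arsj, -0.28 ± 0.78 for Lgi2, -0.91 ± 0.65 for Dct, 0.24 ± 0.39 for Prrx2, 0.27 ± 0.23 for Cyp4b1 and 0.23 ± 0.15 for Cpn1. These values are those of the brightest probe. The other probes of Dct, Cpn1 and Lgi2 gave 0.36 ± 0.50, -0.05 ± 0.16 and -0.74 ± 0.29, so the Dct and Cpn1 probes differed in sign. Arsj was above background at 8 hours alone and passed the filter through those arrays, which fixes the sign of its change.

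The arrays of 1 day and those of 14 days lay on slides of their own, where slide and time cannot be told apart, and 3 slides held early and late arrays together. Within these 3 slides the lateral level of Pcp4 was higher late by 1.26, 5.24 and 2.76, and its dorsal level differed by -0.34, -0.43 and -3.72. On the last of them the dorsal change was the larger. With slide as a block over the 3 slides the lateral change of Pcp4 was 2.63 ± 0.48 (SE). That fit set 4 and 7 days against 8 hours and 2 days, without 1 day and 14 days. Its values thus differ from the others in the times compared as well as in the block. The lateral change of Arsj was -1.96 on the slide with the 8 hours arrays and -0.10 and 0.23 on the others.

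**Figure D2:**
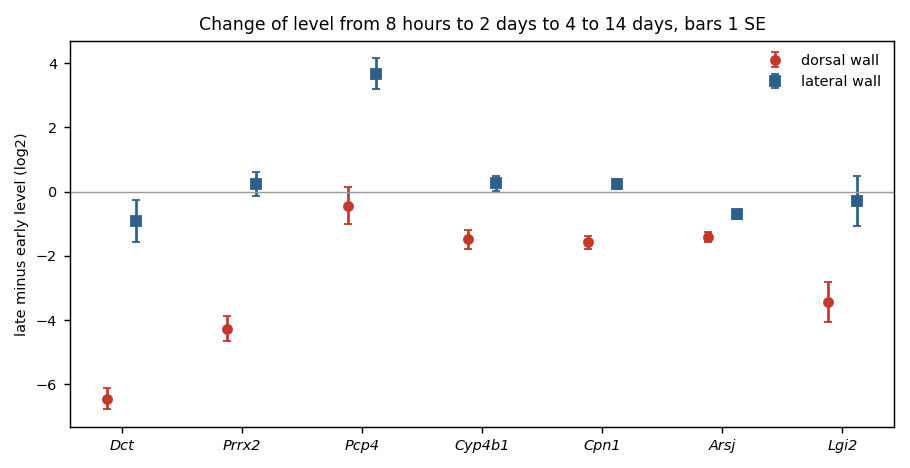
Mean log2 level of 4, 7 and 14 days minus that of 8 hours, 1 day and 2 days (y axis), per gene (x axis). Circles are dorsal cells, squares are lateral cells, and bars are 1 SE. Only the representative probe of each gene is shown. Dct, Prrx2 and Lgi2 were lower late in dorsal cells, at -6.46, -4.27 and -3.44, and Pcp4 was higher late in lateral cells, at 3.68, and at -0.44 in dorsal cells.

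In dorsal cells the same late minus early change, given with no test, was -6.46 ± 0.32 (SE) for Dct, -4.27 ± 0.39 for Prrx2, -3.44 ± 0.64 for Lgi2, -1.58 ± 0.21 for Cpn1, -1.48 ± 0.30 for Cyp4b1 and -1.42 ± 0.16 for Arsj. The other probes of Dct, Lgi2 and Cpn1 gave -4.26 ± 0.78, -1.14 ± 0.24 and 0.04 ± 0.17. By the brightest probe, the dorsal change was larger in size than the lateral change for 6 of the 7 genes. A choice by a high early dorsal ratio favours this order. The share of all genes with this order was not computed, so no result about the 7 genes is drawn from it. Over all genes the median change was 0.06 in dorsal and 0.05 in lateral cells. The values for Cpn1, Cyp4b1 and Arsj understate a change from detected to not detected. Their late dorsal levels sat at background, and their early means include times at or near background. At 8 hours, 1 day and 2 days the dorsal mean was 10.29, 6.44 and 6.14 for Arsj and 10.36, 6.53 and 6.86 for Cyp4b1. That of Cpn1 was 8.73, 6.35 and 8.63. The background also limits the values of Dct and Lgi2, whose brightest probes were detected on 3 of 10 late dorsal arrays each. With the scanner's processed signals the dorsal changes were -9.12 for Dct, -5.80 for Lgi2, -3.54 for Cpn1, -2.73 for Cyp4b1 and -2.58 for Arsj, and with the mean over probes that of Cpn1 was -0.77. With slide as a block, and without 1 day and 14 days, the dorsal changes of Cyp4b1 and Cpn1 were -2.30 and -2.44. The block and the change of times cannot be told apart there.

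Cyp4b1 encodes a cytochrome P450 that hydroxylates fatty acids and activates some foreign compounds, chiefly in lung. At 8 hours its dorsal levels were 10.86 and 9.86 and its lateral levels 6.10 and 6.04, a 19.5-fold difference (4.29 ± 0.66 on the log2 scale, SD, n = 2). At 1 day the wall differences were no larger than 0.17. At 2 days replicate 2 stood at 7.57 in dorsal and 6.10 in lateral cells, and replicate 1 showed no difference, at -0.10. On the 10 later arrays the dorsal probe was never well above background. A high dorsal level of Cyp4b1 was thus a feature of the 8 hours samples.

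Arsj encodes arylsulfatase J, named for its likeness to enzymes that cut sulfate esters. It was well above background on the 2 arrays of 8 hours and on no other array, in either wall. There its dorsal levels were 10.29 and 10.28 and its lateral levels 7.93 and 8.45, a 4.27-fold difference (2.09 ± 0.37 on the log2 scale, SD, n = 2). Arsj was therefore detected in both walls at 8 hours, more in dorsal cells. All its later values, 5.96 to 6.63 in dorsal and 5.98 to 6.58 in lateral cells, were at background and have no order. Both 8 hours arrays lay on 1 slide, together with 4 days replicate 3 and 7 days replicate 3, where Arsj was not well above background.

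Cpn1 encodes the catalytic subunit of carboxypeptidase N, a plasma enzyme made in liver that trims kinins and complement peptides. Through probe A_52_P308669 its dorsal levels were 9.04 and 8.42 at 8 hours and 7.92 and 9.33 at 2 days. Lateral levels were not well above background at 8 hours, where the dorsal level was at least 6.68-fold higher. That bound sets the dorsal mean against, per array, the higher of the probe's own lateral signal and the lowest signal that counted as detected, and it is open to dye bias. At 2 days the lateral probe was above background on 1 of 2 arrays, and the wall differences were 2.15 and 3.22, the first against a lateral signal at background. At 1 day neither wall was above background on any of the 3 arrays, so the dorsal signal was not continuous over the early times.

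Lgi2 encodes a secreted leucine-rich protein of a family that binds ADAM22 and ADAM23 at synapses. Through probe A_52_P446364 dorsal cells stood at 11.37 and 11.87 at 8 hours and at 12.77, 13.19 and 11.78 at 1 day. Lateral cells stood at 7.08 and 9.68, and at 8.31, 7.21 and 6.04. All 5 of these dorsal levels lay above all 5 lateral levels, and the fold was 9.44 at 8 hours and 42.0 at 1 day. At 2 days the arrays opposed each other, with a wall difference of -4.32 on replicate 1, where the dorsal probe was not above background, and 2.92 on replicate 2.

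At 14 days the wall difference of Lgi2 ranged from -2.08 to 1.25, and its lateral level, 6.70 to 12.16, overlapped the dorsal level, 7.04 to 11.54. The early minus late wall difference of Lgi2 within slides also had both signs. It was 4.75, -4.40 and 2.74 on the 3 shared slides, whereas the values of Dct were 4.97, 4.53 and 6.37, those of Prrx2 were 2.99, 4.69 and 4.47, and those of Pcp4 were 1.59, 5.67 and 6.47. Cyp4b1 gave 4.32, -0.05 and 1.51 and Cpn1 gave 2.82, 2.06 and 3.18. Arsj gave 2.13, 0.00 and -0.08. The values of Dct, Prrx2, Pcp4 and Cpn1 were thus above 1 on each of the 3 slides, and those of Lgi2, Cyp4b1 and Arsj were not. These are the wall differences used in the choice, given as a description.

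Dct, Cpn1 and Lgi2 had a further probe each, and these did not repeat the pattern alike. The first 30 of the 60 bases of each probe are printed to tell the probes apart, in lower case because no motif is marked. Positions are those of the newer array annotation, build mm9, and all 6 probes lie on the minus strand. The exon and UTR of each probe are not analysed here.
Dct A_51_P116838, chr14:118412048-118412105: ttgtacacagacaaaatgcttgggtcattc
Dct A_52_P550629, chr14:118438837-118438896: caagatgacccaacgctgattagtcggaac
Cpn1 A_52_P308669, chr19:44040725-44040784: ctccacactaactgctttgagatcacgctc
Cpn1 A_52_P8391, chr19:44036755-44036814: gcccccaattaagacaataacagtttctgg
Lgi2 A_52_P446364, chr5:52924807-52924866: taaagctgtatctacttagctctttttgga
Lgi2 A_51_P361830, chr5:52929239-52929298: agccgtctccaccgacaggagagatttctt

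The Dct probes lie 26.8 kb apart in the genome and showed the same early side. Probe A_52_P550629 was dorsal on all 7 early arrays, by 2.77 to 5.74. On later arrays it differed from the brighter probe at 7 days replicate 2, where it read 11.49 in dorsal and 6.09 in lateral cells (5.39), against 6.53 and 9.09 (-2.56) for A_51_P116838. That array gave opposite directions for 1 gene, so its Dct direction is unsettled. On the other 9 late arrays A_52_P550629 ranged from -2.0 to 0.14.

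The Cpn1 probes lie 4.0 kb apart and did not share the pattern. A_52_P8391 was well above background in lateral cells on 2 arrays and in dorsal cells on none, and its wall difference stayed between -0.35 and 0.23 on all 17 arrays. It carries the name Cpn1 in the older array annotation and a transcript identifier without a gene name in the newer. The Cpn1 result thus rests on 1 probe. Averaging the probes lowered the early wall difference from 1.80 to 0.85.

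The Lgi2 probes lie 4.4 kb apart and shared only the 8 hours difference. A_51_P361830 was dorsal by 1.08 and 1.5 at 8 hours, or 2.45-fold. At 1 day it gave -0.01, 0.04 and -1.23, where A_52_P446364 gave 4.46, 5.98 and 5.74. At 2 days it gave 0.97 and 0.14. Which transcripts each probe reads was not tested. The remaining members, Prrx2, Pcp4, Cyp4b1 and Arsj, had 1 probe each, at chr2:30736593-30736653 (plus strand), chr16:96747241-96747300 (plus), chr4:115297527-115297586 (minus) and chr3:126142564-126142623 (plus), in mm9.

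**Figure D3:**
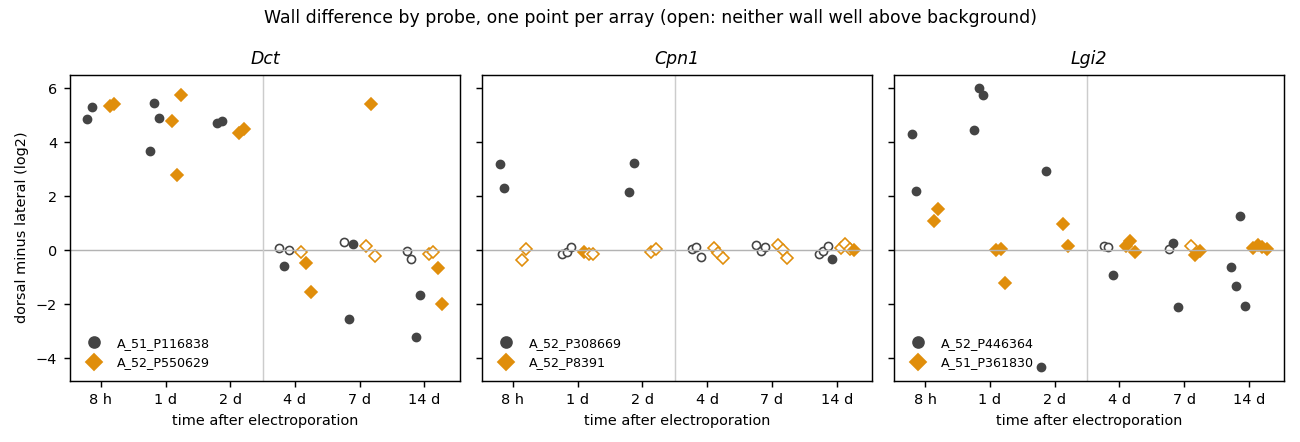
Dorsal minus lateral log2 difference (y axis) by time after electroporation (x axis) for both probes of Dct, Cpn1 and Lgi2, a point per array. Open points were not well above background in either wall. The Dct probes shared the early difference and parted at 7 days replicate 2 (5.39 against -2.56), A_52_P8391 of Cpn1 stayed near 0, and A_51_P361830 of Lgi2 was dorsal mainly at 8 hours.

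Relatives of each gene were read in the early wall difference. Of 14 other melanocyte and melanin genes measured, 1 was higher in dorsal cells early and 0 were lower (median 0.30, against 0.02 over all genes, where 1.97% were called higher and 1.54% lower). Sox10, a neural crest and oligodendrocyte factor, was higher by 2.70 ± 0.60 (SE, limma adjusted p = 0.034, 7 of 7 early arrays). Its call ended when any of 7 arrays was left out, among them 8 hours replicate 1 (limma adjusted p = 0.16), 8 hours replicate 2 (0.086), 2 days replicate 1 (0.16) and 2 days replicate 2 (0.068), with 1 day replicate 3, 4 days replicate 1 and 7 days replicate 3 at 0.052, 0.050 and 0.051. With the mean over probes Sox10 stood at 1.38 (0.18), and processed signals, median centring and the deposited table also ended the call (0.053, 0.057 and 0.080). The melanosome genes Pmel, at 2.18 ± 0.84, and Mlana, at 1.07 ± 0.29, did not pass (limma adjusted p = 0.19 and 0.066). Mitf and Slc45a2 leaned to the lateral side, at -0.31 ± 0.18 and -0.37 ± 0.22 (limma adjusted p = 0.40 and 0.42). Of the 14 genes 8 stood above 0, as did 13644 of all 26360 genes. Tyrp1, the closest enzyme relative of Dct, stood at 0.08 ± 0.10 and was above background on 2 of 7 early arrays in either wall. Tyr was not among the genes tested. At later times Sox10 rose in lateral cells, by 3.92 (limma adjusted p = 8.3e-05).

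Among 8 paired-related homeobox genes, 0 were called in the early wall difference (median -0.15). Prrx1, the sister gene of Prrx2, stood at -0.14 ± 0.21 (limma adjusted p = 0.79), with Rax at -0.44 and Alx1 at -0.21. Of 6 calmodulin genes and small IQ-motif proteins, 0 were called (median 0.09). Gap43, a growth cone protein, stood at 1.74 ± 0.65 (limma adjusted p = 0.18), Nrgn at -1.14 and Pcp4l1 at 0.16. With time, Pcp4l1 rose in dorsal cells by 2.75 (limma adjusted p = 0.023).

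Of 11 other Cyp4 genes, 0 were called early and 9 stood above 0 (median 0.54), as did 13644 of all 26360 genes. Cyp4v3 stood at 1.23, Cyp4f16 at 1.18 and Cyp4a29 at -0.84. Of 10 carboxypeptidase genes, 1 was called: Cpe, which processes neuropeptides, was higher in dorsal cells by 1.23 ± 0.25 (SE, limma adjusted p = 0.021). Its call ended when 2 days replicate 1 (0.11) or either 8 hours array was left out (0.12 and 0.060), and with arrays centred on the median its value was -0.17. Cpn2, the partner subunit of Cpn1, stood at -0.10 ± 0.21. Of 12 sulfatases, 10 stood above 0 early (median 0.76) and 11 late (median 0.47), so this lean was not particular to the early times. In the early difference 1 was called: Ids, a lysosomal enzyme, was higher by 1.53 ± 0.32 (SE, limma adjusted p = 0.022). That call ended without either 8 hours array (0.13 and 0.056) and without either 2 days array (0.081 for both). Ids stood at 0.56 with median centring and at 0.60 with the mean over probes (0.56 and 0.41). Arsi, the closest relative of Arsj, stood at 1.35 ± 0.53 (limma adjusted p = 0.20).

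Of 5 LGI family genes and receptors measured, 0 were called early (median -0.25). Lgi4 leaned to the lateral side, at -2.41 ± 0.65 (limma adjusted p = 0.064), opposite to Lgi2, and Lgi3 stood at 0.61 and Adam23 at -0.52. In the change of the wall difference from early to late, 0.312% of all genes were called, 0.258% as more dorsal early and 0.0532% as less, and none of the relatives in these 7 lists was among them.

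**Figure D4:**
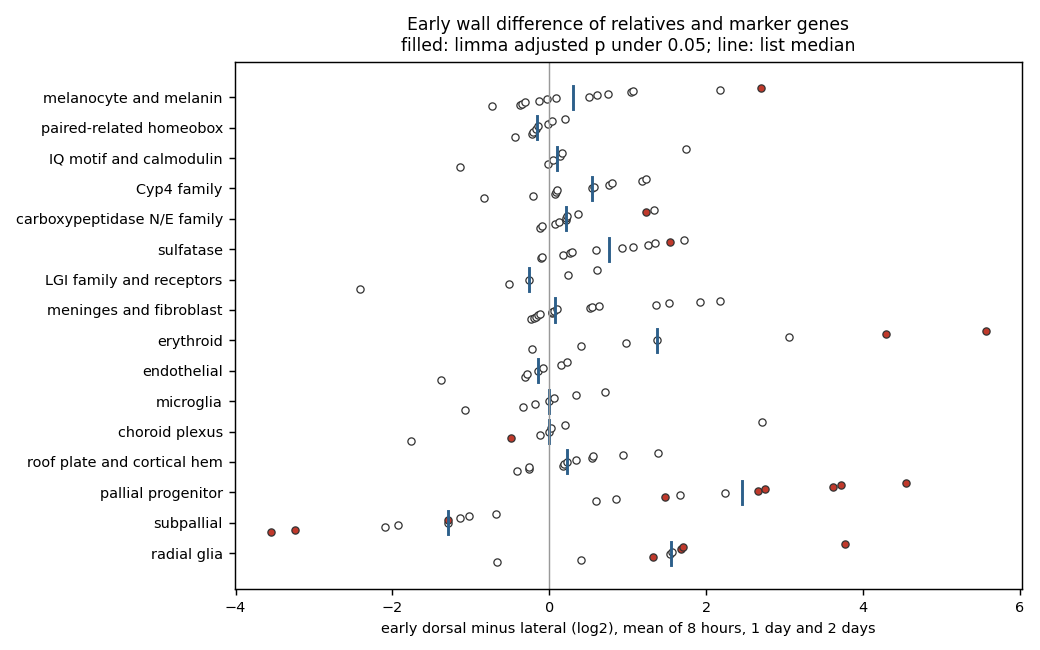
Early wall difference, dorsal minus lateral (x axis, log2, mean of 8 hours, 1 day and 2 days), for the genes of 16 lists (y axis). Each point is a gene, filled where limma's adjusted p was under 0.05, and lines are list medians, which ran from -1.30 for subpallial genes to 2.45 for cortical progenitor genes.

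Markers of the wall origins also differed between the walls at the early times. The cortical progenitor list had a median early difference of 2.45, with Tfap2c at 4.55 ± 0.74, Fezf2 at 3.72 ± 0.59, Dmrta2 at 3.62 ± 0.35, Eomes at 2.75 ± 0.54, Emx1 at 2.66 ± 0.59 and Emx2 at 1.47 ± 0.27 (limma adjusted p from 0.0004 to 0.031). The subpallial list had a median of -1.30, with Dlx2 at -3.55 ± 0.18, Dlx1 at -3.24 ± 0.43 and Gsx2 at -1.29 ± 0.15 (limma adjusted p from 1.4e-06 to 0.0026). In the radial glia list 4 of 8 genes were higher in dorsal cells: Tnc at 3.77 ± 0.64, Slc1a3 at 1.71 ± 0.30, Fabp7 at 1.68 ± 0.34 and Vim at 1.32 ± 0.29 (limma adjusted p from 0.0082 to 0.038). The signs of Vim and Fabp7 flipped with arrays centred on the median, to -0.15 and -0.093, and Slc1a3 stood at 0.32 there (limma adjusted p = 0.64). With the mean over probes Vim stood at 0.42 and Emx2 at 0.86 (limma adjusted p = 0.20 and 0.37). Emx1 and Eomes did not pass without any of the 8 hours or 2 days arrays (adjusted p from 0.065 to 0.12 by limma), and Emx1 also without 1 day replicate 3 (0.062). Emx2 did not pass without 2 days replicate 1 (0.073), nor Tnc without 8 hours replicate 1 (0.056). Slc1a3 missed the threshold without 2 days replicate 1 (0.079) and without either 8 hours array (0.075 and 0.052). Fabp7 and Vim missed it without any of 6 and 9 arrays, at up to 0.14.

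The wall difference itself changed from early to late in 3 of these genes. It fell by 2.57 ± 0.45 for Dmrta2, from 3.62 to 1.05 (limma adjusted p = 0.037), and moved from -3.55 to -0.43 for Dlx2 (limma adjusted p = 0.0002) and from -1.29 to -0.11 for Gsx2 (limma adjusted p = 0.032). The Dmrta2 and Gsx2 calls ended when any of 11 and 10 arrays was left out (adjusted p up to 0.12 and 0.11). With slide as a block over the shared slides, the values were 1.72 for Dmrta2, -3.29 for Dlx2 and -1.10 for Gsx2 (limma adjusted p = 0.16, 0.13 and 0.32). That fit left out the arrays of 1 day and 14 days. Dorsal levels of cortical progenitor genes fell with time alongside those of Dct and Prrx2: 5 of 10 passed, where 4.88% of all genes were called, 1.56% higher and 3.32% lower late, among them Tfap2c at -3.98 and Emx2 at -2.74. In the radial glia list 4 of 8 fell in dorsal cells, among them Tnc at -3.47 and Vim at -2.62.

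Markers of cell types outside the lineage were read because the sort could hold other cells. Of 16 meningeal and fibroblast genes, which include tissues where Prrx2 is known, 0 were called early (median 0.08). Lum was above background on no early array in either wall, Foxd1 on 0 dorsal and 1 lateral array, and Twist1 on 3 and 1. Col1a2 stood at 2.17 ± 0.83, Pdgfra at 1.93 ± 1.11 and Islr at 1.52 ± 0.44 (limma adjusted p = 0.19, 0.40 and 0.079). The mean level of the list on early arrays was 7.41 to 8.91 in dorsal and 7.06 to 8.05 in lateral cells. Its highest levels came later, at 7 days replicate 2, with 10.94 in dorsal and 10.89 in lateral cells.

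Of 7 erythroid genes, 2 were higher in dorsal cells early and 0 were called in the change of the wall difference from early to late. Hba-a1 was higher by 5.57 ± 1.13 and Hbb-bt by 4.30 ± 0.68 (SE, limma adjusted p = 0.032 and 0.011), each on 6 of 7 arrays, and the median of the list was 1.37. The mean level of the list was 9.80 to 12.06 in dorsal and 7.41 to 9.95 in lateral cells on the 7 early arrays. It was 7.09 to 10.71 in dorsal and 7.44 to 9.66 in lateral cells on the 10 later arrays. At 7 days it was also higher in dorsal cells on all 3 arrays, at 10.71, 9.92 and 10.08 against 8.22, 8.04 and 7.87. Hba-a1 did not pass without any of 7 arrays (limma adjusted p up to 0.13, without 8 hours replicate 1), nor Hbb-bt without 8 hours replicate 1 (0.069) or 2 days replicate 1 (0.058). Dorsal cells also had the higher Hbb-bt level late, by 3.05 ± 0.76, which did not pass (limma adjusted p = 0.33). In dorsal cells Slc4a1, an anion exchanger gene of the list, fell with time by 1.77 (limma adjusted p = 0.0008). The part of such cells in the levels of the 7 genes was not tested.

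Endothelial and microglial lists had 0 of 7 genes called each (medians -0.14 and -0.01), with Cldn5 at -1.38 and Cx3cr1 at -1.07 the farthest from 0. Of 7 choroid plexus genes 1 was called, Kl, lower in dorsal cells by 0.49 (limma adjusted p = 0.024), and its call ended without any of the 8 hours or 2 days arrays (0.063 to 0.12), and with the mean over probes it stood at -0.19 (0.76). Ttr, the defining gene of that tissue, stood at -0.12 ± 0.59, and Kcne2 at 2.71 ± 0.80 and Otx2 at -1.76 ± 0.77 did not pass (limma adjusted p = 0.087 and 0.25). Of 11 roof plate and cortical hem genes, markers of the dorsal midline, 0 were called (median 0.23), with Bmp6 at 1.39, Rspo1 at 0.94 and Msx1 at 0.56.

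Genes whose wall difference followed a time course most like the median of the 7 were ranked by the root mean square difference over the 6 time means, as a description. The median profile was 3.24, 4.26 and 2.69 at 8 hours, 1 day and 2 days, and -0.17, -0.22 and -0.49 at 4, 7 and 14 days. Nearest was Cd109, which encodes a surface protein that binds TGF-beta, at 0.37. It was followed by Tppp3, a tubulin-binding protein gene, at 0.43, and by Ptx3, a secreted pentraxin gene, at 0.51. A probe named only NAP042151-1 and the urea transporter gene Slc14a1 came next, at 0.62 and 0.63. Cd109 stood at 3.00, 4.36 and 3.22 early and at -0.12, -0.64 and 0.04 late. Each of the 7 was also ranked against the genes outside the 7. Its rank was 5 for Prrx2, 111 for Dct, 423 for Lgi2, 566 for Pcp4, 1406 for Cpn1 and 2607 for Cyp4b1. Arsj, high at 8 hours alone, had rank 4605. The 7 genes set the median profile themselves, which favours them in this order.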

How the data were processed

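RNA of sorted cells was read on 17 Agilent arrays of 2 colours. The deposited scanner files hold fluorescence intensity on a linear scale, and the authors' extraction software was Agilent Feature Extraction, version 10.5.1.1 on some arrays and 10.7.3.1 on others, per the file headers. The log10 ratio in these files, per the file headers red over green, served to find that the deposited value table holds log2 values of green over red (r of -0.90 to -0.97 with it). That table was an alternative for wall differences, and the sources used here do not give its normalization.

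Mean signals were corrected with normexp (offset 50), then by loess on each array (control spots had weight 0) and by Aquantile between arrays. Spots with outlier flags were left out, and no spot was saturated. The filter kept 36785 probes that were well above background on 2 or more arrays, in whichever channel, and all 10 probes of the 7 genes passed, A_52_P549166 of Arsj and A_52_P8391 of Cpn1 on 2 arrays each. A filter on either channel favours probes that are high in 1 group. The brightest probe stood for a gene. Probes were named through RefSeq accessions (27198), symbols or synonyms (3091) or the files' names (10885), using a table of GRCm38.p6. The array files carry 2 annotations (9 arrays older, 8 newer).

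Groups came from the time in the labels. A mean per time was fitted to all 17 arrays in limma 3.58.1 (lmFit, eBayes) in R 4.3.3, with tables read by its package data.table, version 1.17.8. Levels were log2 values per channel. The lateral change with time, planned as a test for the 7 genes, is given without one, since lateral levels entered their choice. Tests were two-sided, adjusted by Benjamini-Hochberg over all genes, with a threshold of 0.05, and the scripts were tested on simulated data. Same-numbered arrays of different times did not deviate together (36 pairs, r of -0.042 to 0.077), so numbers were not used as pairs. Figures used matplotlib under Python.

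The 7 genes and the lists were chosen with earlier results of these data known. Named were all 7 genes, the genes of each list called in the early or the early minus late wall difference, otherwise up to 3 with the largest early differences, and the defining genes discussed beside them, which were chosen after their values were seen. Alternatives were the scanner's processed signals, median centring, quantile normalization, filters of 0 and 6 arrays, the mean over probes, replicate and slide blocks, leaving out arrays, the deposited table and each probe as its own row. The last, the fixed slide block and the within-slide values were added after seeing the data. Results for some genes of the lists are not reported here.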

Additional observations from a re-analysis of the deposited data

Results flagged for a closer look

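Among the 4 arrays of 14 days, 14 days replicate 2 stood apart for Cyp4b1 in both channels. Its dorsal level was 7.94, where the others lay between 6.21 and 6.37, and its lateral level was 8.01, where the others lay between 6.34 and 6.54. The dorsal probe was not well above background on any of the 4 arrays. Its raw Cy3 signal was 28.1 on 14 days replicate 2, close to 25.3, 27.7 and 25.1 on the others, so the dorsal value stood apart only after normalization. This array had the lowest share of dorsal probes above background, 41.0%, and the wall difference of Cyp4b1 on it was small. For Arsj, 14 days replicate 4 gave a wall difference of -0.21, away from 0.02 to 0.07 on the others, with both channels at background on all 4. Of 30 sets of 4 values examined 3 stood out in this way, and chance flags about 1 in 20.

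The wall difference of 3 marker genes differed between early and late times by limma's test of the difference itself. The early minus late value was 2.57 for Dmrta2 (limma adjusted p = 0.037), -3.11 for Dlx2 (0.0002) and -1.19 for Gsx2 (0.032).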

How the results depend on the processing

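The early wall differences of the 7 genes, which the choice made positive, kept their sign under all alternatives, where each probe as its own row was read for the brightest probe only. The other Cpn1 probe, A_52_P8391, stood at -0.10 as its own row. Of these early values 7 moved by more than the spread between arrays and 187 did not, as did 12 early minus late values, with 189 that did not. Many early values could not move, because later arrays do not enter the early mean and the filters leave the value of a kept gene as it was. These counts are therefore no measure of stability. The cause was not tested for any change here. Counts of genes called moved more. For the early wall difference (927 genes called), processed signals gave 433, median centring 1662, slide as a random block 1914, and the authors' deposited values 341, and leaving out 1 day replicate 1 with 14 days replicate 2 gave 1770. For the late wall difference (0 called), they gave 6, 4900, 94, 3 and 0, while quantile normalization and each probe as its own row gave 2 and the mean over probes 1. Median centring shifted the median of all genes to -0.10 early and -0.35 late. For early minus late (82 called), they gave 10, 28, 125, 6 and 135, and slide as a fixed block over the shared slides gave 0. The fit with the fixed block left out the arrays of 1 day and 14 days, so its counts compare other times. That block gave 3315 for the lateral level (1576 called) and 2689 for the dorsal level (1284 called), and leaving out the arrays that stood apart gave 3081 for the lateral level. The replicate block, whose numbers do not pair the arrays, gave 112 for the early wall difference and 33 for early minus late.

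Leaving out each array in turn gave 272 (without 8 hours replicate 1) to 1459 (without 1 day replicate 1) early, 0 to 6 late, 16 (without 8 hours replicate 1) to 138 (without 1 day replicate 1) for early minus late, 949 (without 2 days replicate 1) to 2403 (without 1 day replicate 1) for the lateral level and 612 (without 8 hours replicate 1) to 1504 (without 14 days replicate 1) for the dorsal level. With median centring the early wall differences of Cpe, Fabp7 and Vim reversed, to -0.17, -0.093 and -0.15. Lateral changes reversed for Prrx2 with slide as a fixed block (-0.27), for Cpn1 with processed signals (-0.31) and for Lgi2 without 8 hours replicate 2 (0.15), 2 days replicate 1 (0.33) or 14 days replicate 3 (0.03), with a range of -0.90 to 0.33 when each array was left out in turn. Arsj and Cpn1 were seen above background on few arrays, and the filter of 6 arrays removed them.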
